A study of Mus musculus with 4 samples.

Results

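The genes described here are 34 mouse genes of the pathway through which amino acids and growth factors reach mTORC1, chosen by name: 3 of GATOR2, 3 of GATOR1, 2 of KICSTOR, 4 Rag GTPases, 5 of Ragulator, 3 of the folliculin complex and the arginine sensor Slc38a9, 7 of the mTOR complexes, 4 of Rheb and TSC, and 2 substrates. They are 34 of the 17621 genes in the deposited files, and all 34 were among the 12976 genes expressed highly enough to be compared. The rule that names them uses no measured value, although the members were chosen with earlier results of these data known. Libraries were made from primary neural stem cells of the newborn mouse cortex, to ask how loss of the nucleoporin Seh1 alters expression during proliferation and differentiation. Seh1 is also a subunit of GATOR2, which ties the perturbation to these genes.

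All 4 groups carried floxed Seh1 alleles and each is 1 library. Where a pair of values is given for a day, Ctrl comes first and iKO second. The group Ctrl had the genotype Seh1 f/f, and the group iKO had the genotype cmv-cre-ert,seh1 f/f. Day 0 cells were in growth medium with EGF and bFGF, and day 3 cells were in differentiation medium after both factors were withdrawn. The name cmv-cre-ert is read here as a Cre recombinase fused to an estrogen receptor domain under a CMV promoter, which is active in many cell types. Treatment with an inducer, the number of animals behind each culture and any pooling were not stated by the sources used here. The Ctrl cells lack the recombinase as well as the deletion, so the effects of these cannot be told apart. The estimated (expected) counts added up to between 19611747 and 21040586 per library. Seh1l stood at 40.3 and 19.2 CPM at day 0 (Ctrl, then iKO) and 33.2 and 11.0 CPM at day 3, and Esr1, whose receptor domain is part of the recombinase, was under 0.1 CPM in both Ctrl libraries and at 88.3 and 122 CPM in the iKO libraries. Both checks follow the labels.

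The labelled cell type was checked on marker lists. All 11 neural stem and progenitor markers were above 0 in the 4 libraries, with a summed level of 7398 and 7904 CPM at day 0 (Ctrl, then iKO) and 10944 and 10990.0 CPM at day 3. The rise of the sum does not hold for each gene. Between the days in Ctrl, 2 of the 11 were at least 2-fold higher and 4 lower, where 29.7% of all compared genes passed 2-fold. Neuron markers (7 genes) summed to 929 and 867 CPM at day 0 and 1716 and 925 CPM at day 3. The day 0 sum hides the direction of most of them. At day 0, 6 of the 7 were higher in iKO and 1 lower, with 2 at least 2-fold higher (2.67% of all compared genes). At day 3, 6 were lower in iKO and 1 higher, with 3 at least 2-fold lower (4.76% of all compared genes). Astrocyte markers (6 genes) summed to 501 and 1149 CPM at day 0 and 9867 and 15779.6 CPM at day 3. Differentiated cell markers were thus present, and they differed between the groups. Oligodendrocyte lineage markers (8 genes, none at 0) summed to 4647 and 4113 CPM at day 0 and 4719 and 3441 CPM at day 3. Here too the day 0 sum hides single genes. At day 0, 7 of the 8 were lower in iKO and 1 higher, with 4 at least 2-fold lower (0.331% of all compared genes). At day 3, 8 of the 8 were lower in iKO, with 6 at least 2-fold lower (4.76% of all compared genes). Microglia markers summed to no more than 8.81 CPM and endothelium markers to no more than 2.60 CPM. Fibroblast and mural markers (6 genes) summed to 6.79 and 18.8 CPM at day 0 and 13.6 and 9.65 CPM at day 3, and at day 0 iKO exceeded Ctrl 2-fold or more in 2 of the 4 compared. Among the markers of these 3 lists Aif1 and C1qa were at 0 in 3 of the 4 libraries, as was Cldn5. Marker levels therefore moved with day and genotype, and their part in the differences below was not tested. In bulk RNA, fewer cells of a type and less RNA per cell cannot be told apart.

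As background, mTORC1 is a kinase complex that drives protein synthesis and growth when it is held at the lysosome. The Rag GTPases bring it there as pairs of RagA or RagB with RagC or RagD, anchored by Ragulator, and the small GTPase Rheb then activates it. GATOR1 switches off RagA and RagB, KICSTOR places GATOR1 on the lysosome, and GATOR2 opposes GATOR1 when amino acids are plentiful. The TSC complex switches off Rheb and relays growth factor signals. In neural stem cells this pathway is known for its role in the balance between proliferation and differentiation. The values here are RNA levels, and they do not measure kinase activity or protein.

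The promoters of 4 Rag and Ragulator genes are shown because they hold the E-box CACGTG, which is bound by the MiT/TFE transcription factors that Rag GTPases are known to control. They were picked for these letters and not for their levels. The letters CACGTG, a palindrome that reads the same on both strands, were searched in the 250 bases before each RefSeq start (GRCm38.p6, the mm10 assembly). They are in capitals below, and the base just before the start is position -1. The Rragc window is chr4:123917183-123917432 on the plus strand with a match that begins at -112. The Rragb window is chrX:153139708-153139957 on the plus strand with matches at -127 and -36. The Lamtor1 window is chr7:101905587-101905836 on the plus strand with a match at -68. The Lamtor4 window is chr5:138255232-138255481 on the plus strand with matches at -120 and -104.
Rragc: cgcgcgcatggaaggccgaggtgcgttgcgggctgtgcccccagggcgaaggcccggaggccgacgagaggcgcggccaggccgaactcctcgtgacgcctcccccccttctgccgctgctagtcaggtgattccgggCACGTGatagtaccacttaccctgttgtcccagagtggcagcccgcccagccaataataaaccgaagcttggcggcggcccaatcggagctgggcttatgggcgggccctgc
Rragb: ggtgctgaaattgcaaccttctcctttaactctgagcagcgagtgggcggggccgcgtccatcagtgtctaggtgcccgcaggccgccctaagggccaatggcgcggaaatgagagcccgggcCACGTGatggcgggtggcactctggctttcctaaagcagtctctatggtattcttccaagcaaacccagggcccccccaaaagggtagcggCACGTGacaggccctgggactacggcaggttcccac
Lamtor1: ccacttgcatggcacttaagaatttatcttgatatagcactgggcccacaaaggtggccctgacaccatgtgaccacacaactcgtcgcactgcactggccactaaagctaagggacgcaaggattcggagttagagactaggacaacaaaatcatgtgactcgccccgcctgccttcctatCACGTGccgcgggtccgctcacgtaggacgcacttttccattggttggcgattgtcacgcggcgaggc
Lamtor4: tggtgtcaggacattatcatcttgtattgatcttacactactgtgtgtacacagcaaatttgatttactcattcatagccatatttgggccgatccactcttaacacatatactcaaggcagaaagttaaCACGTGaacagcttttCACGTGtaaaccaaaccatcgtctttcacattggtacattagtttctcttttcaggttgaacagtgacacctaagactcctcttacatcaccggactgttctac

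A promoter was found for 31 of the 34 genes, and CACGTG was present in 7 of these 31 (22.6%), against 1854 of all 27025 genes with a promoter in the same table (6.86%). Those 27025 genes were not limited to the genes expressed highly enough to be compared, as the members are. The shares given here and for the longer core below therefore come from unlike sets. The 7 were the 4 above with Fnip1, Rheb and Tbc1d7. Among Rag and Ragulator genes 4 of the 8 with a promoter held it and Rraga, Rragd, Lamtor2 and Lamtor5 did not, although the last 3 were also above Ctrl in the day 3 iKO library, and among the other members 3 of 23. The longer core TCACGTGA, which contains CACGTG and is known from lysosomal genes, was in 0 of the 31 and in 0.907% of all genes. These matches describe letters in a window and are not measured binding.

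At day 0 the pathway genes in iKO stood close to Ctrl, and none reached a 2-fold difference. The ratios are of CPM, a gene's count as a share of the library total scaled by TMM, with a 95% interval that covers counting error only, and a gene was counted as 2-fold different when log2((CPM + 1)/(CPM + 1)) was at least 1 in size. The largest differences were in Mios, Slc38a9, Eif4ebp2 and Fnip2. Of the 34 genes, 0 passed 2-fold against a background of 3.01% of all compared genes, and 0 passed 1.5-fold against 14.4%. The median log2 ratio was -0.07 for the 34 genes and -0.06 for all compared genes, and the median size of the log2 ratio was 0.11 against 0.25. With 1 library per group, there is no spread between replicates to set these differences against, and no p-values are given.

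At day 3 the differences were somewhat larger and again none passed 2-fold: 0 of 34, against 11.0% of all compared genes. Slc38a9 alone passed 1.5-fold (1 of 34, lower), against 26.4% of all compared genes in either direction and 11.3% in the lower direction. Rragc, Rragd and the Ragulator genes were higher in iKO, and Slc38a9, Mios, Itfg2, Rictor, Rps6kb1 and Tsc1 were lower. The median log2 ratio was -0.01 both for the 34 genes and for all compared genes, and the median size was 0.18 against 0.32. Of the 34 log2 ratios of iKO to Ctrl, 14 had opposite signs on the 2 days, against 34.0% of all compared genes. Among the 11298 genes within the members' range of mean level (3.10 to 313 CPM) the median size was 0.25 at day 0 and 0.30 at day 3. Within the narrower range of 25.1 to 91.2 CPM it was 0.23 and 0.27 for 4895 genes. For the 16 members in that range it was 0.09 at day 0 and 0.24 at day 3, so at day 3 they lay near genes of like level. The share of those 4895 genes past 2-fold was 1.90% at day 0 and 7.11% at day 3. The authors' deposited table of day 3 differential genes, whose smallest log2 ratio is 1 in size, lists 1774 genes and 0 of these 34.

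**Figure D1:**
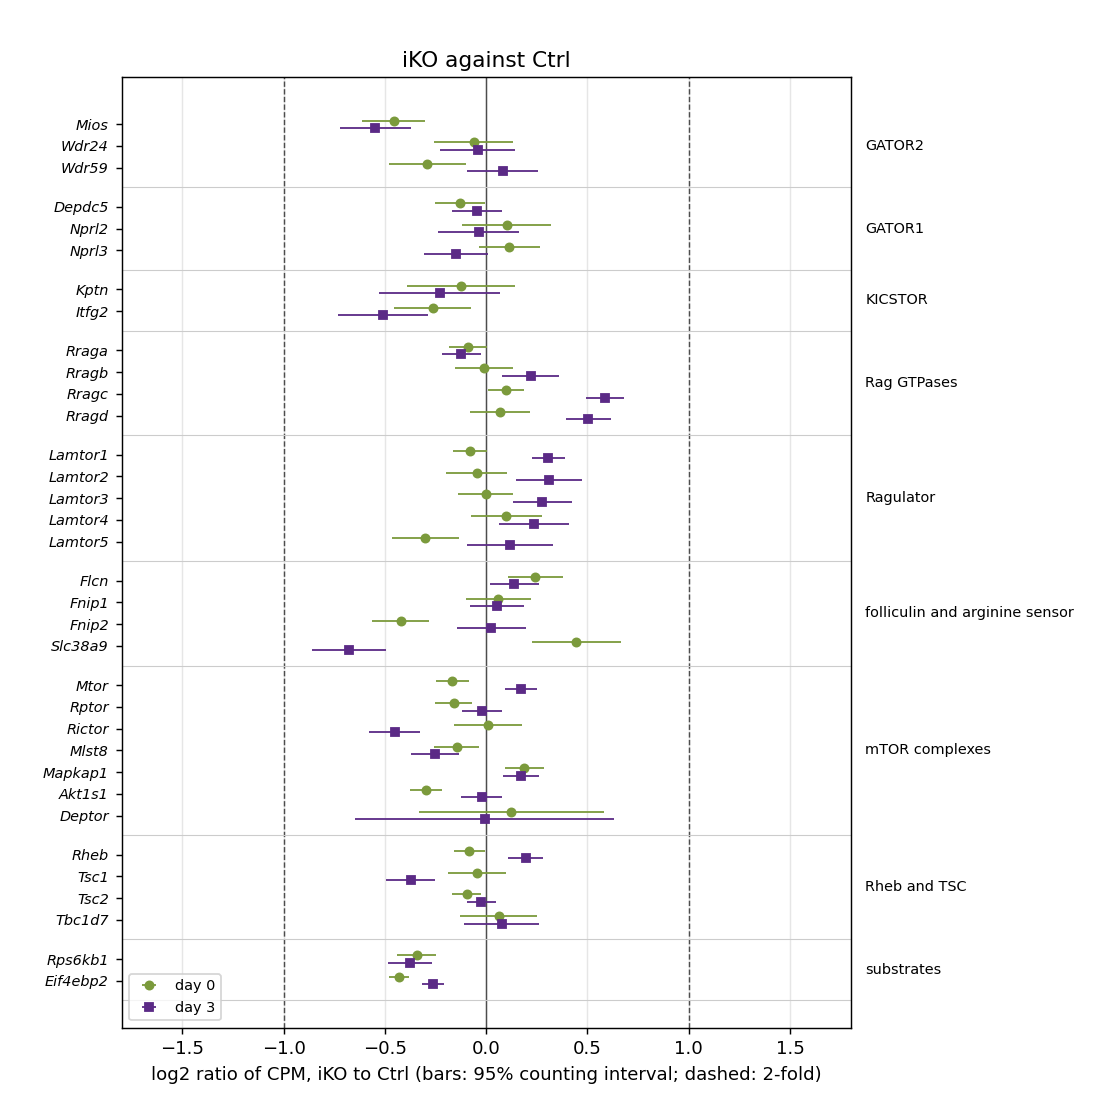
Ratio of iKO to Ctrl for the 34 genes at day 0 and day 3, as the log2 ratio of CPM without a pseudocount, grouped by role. Points are single libraries compared, bars are 95% counting intervals and dashed lines mark 2-fold. No gene lies past the dashed lines, Slc38a9 lies right of 0 at day 0 and left of it at day 3, and all 5 Ragulator genes lie right of 0 at day 3.

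GATOR2 is the complex that holds Seh1. Mios, a WD40 and RING subunit of its core (gene ID 252875, chr6:8209111-8240573, GRCm38), stood at 37.5 and 27.3 CPM at day 0 (Ctrl, then iKO) and 34.1 and 23.3 CPM at day 3. It was lower in iKO than in Ctrl on both days, 1.37-fold lower (1.23 to 1.53) at day 0 and 1.46-fold lower (1.29 to 1.65) at day 3. Its lowest level was in the day 3 iKO library. Wdr24, the subunit tied to the complex's ubiquitin ligase activity, stood at 21.1 and 20.2 CPM at day 0 and 24.8 and 24.1 CPM at day 3, a spread of levels in which the iKO and Ctrl libraries of a day lay side by side. Wdr59, its partner in the core, stood at 24.2 and 19.8 CPM at day 0 and 26.4 and 27.9 CPM at day 3. It was 1.22-fold lower (1.07 to 1.40) in iKO at day 0, and at day 3 1.06-fold higher (0.936 to 1.20), with 1 inside the interval.

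GATOR1 subunits were close to Ctrl. Depdc5, the subunit that docks on the Rags, stood at 53.5 and 48.8 CPM at day 0 (Ctrl, then iKO) and 54.8 and 53.1 CPM at day 3. Nprl2, the catalytic subunit of the GTPase-activating step, stood at 15.8 and 16.9 CPM at day 0 and 21.5 and 20.9 CPM at day 3. Nprl3, its partner, stood at 33.3 and 36.1 CPM at day 0 and 35.5 and 32.0 CPM at day 3. In all 3 the log2 ratio of iKO to Ctrl lay between -0.15 and 0.11 on both days. Exons of Nprl3 share 17.7% of their bases with Mpg on the other strand, and the sources used here do not state whether counting used the strand. Of KICSTOR, Kptn stood at 11.9 and 10.9 CPM at day 0 and 10.7 and 9.12 CPM at day 3, and Itfg2 at 24.0 and 20.0 CPM at day 0 and 21.1 and 14.8 CPM at day 3. Both were lower in iKO on both days, Itfg2 1.20-fold lower (1.05 to 1.37) at day 0 and 1.42-fold lower (1.22 to 1.66) at day 3.

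Among the Rag GTPases, the RagC and RagD genes were higher in iKO at day 3, and the RagA gene lay close to Ctrl. Rraga, which encodes RagA, stood at 89.8 and 84.5 CPM at day 0 (Ctrl, then iKO) and 95.6 and 87.8 CPM at day 3. Rragb, for the near-identical RagB, stood at 38.3 and 38.0 CPM at day 0 and 39.0 and 45.5 CPM at day 3. The RagA gene ranged from 84.5 to 95.6 CPM, and Rragb was 1.16-fold higher (1.06 to 1.28) in iKO at day 3. Rragc, for RagC (gene ID 54170, chr4:123917433-123936997, GRCm38), stood at 93.6 and 100.2 CPM at day 0 and 75.6 and 113 CPM at day 3. Its level was lowest in the day 3 Ctrl library and highest in the day 3 iKO library, 1.5-fold higher (1.40 to 1.60), while at day 0 iKO was 1.07-fold higher (1.01 to 1.14). On the log2(CPM + 1) scale the day 3 ratio was 0.58, just under 1.5-fold. Exons of Rragc share 7.90% of their bases with 4930535I16Rik on the other strand.

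Rragd, for RagD (gene ID 52187, chr4:32982998-33022180, GRCm38), stood at 34.4 and 36.1 CPM at day 0 (Ctrl, then iKO) and 56.0 and 79.5 CPM at day 3. Both day 3 libraries were above both day 0 libraries, and the day 3 iKO library was highest, 1.42-fold higher (1.31 to 1.53) against Ctrl of that day. At day 0 iKO was 1.05-fold higher (0.945 to 1.16), with 1 inside the interval.

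Ragulator, the scaffold of the Rags at the lysosome, was higher in the day 3 iKO library in 5 of 5 genes, where 48.7% of all compared genes lay above 0. Lamtor1, the subunit that anchors the scaffold in the membrane (gene ID 66508, chr7:101905837-101911903, GRCm38), stood at 116 and 110.1 CPM at day 0 (Ctrl, then iKO) and 109.7 and 136 CPM at day 3, 1.24-fold higher (1.17 to 1.31) in iKO at day 3. Lamtor2, which pairs with Lamtor3 to hold the Rags, stood at 35.0 and 33.9 CPM at day 0 and 28.5 and 35.4 CPM at day 3, 1.24-fold higher (1.11 to 1.39) at day 3. These genes were highest, or level with the highest, in the day 3 iKO library. Lamtor3 stood at 42.8 and 42.8 CPM at day 0 and 35.5 and 43.0 CPM at day 3, 1.21-fold higher (1.09 to 1.34) at day 3. Lamtor4, which pairs with Lamtor5, stood at 24.6 and 26.4 CPM at day 0 and 25.5 and 30.1 CPM at day 3, 1.18-fold higher (1.04 to 1.33) at day 3. Lamtor5 differed in that its levels were higher at day 0 than at day 3 in both genotypes. It stood at 32.0 and 26.0 CPM at day 0 and 18.2 and 19.8 CPM at day 3, 1.23-fold lower (1.10 to 1.38) in iKO at day 0 and 1.09-fold higher (0.938 to 1.26) at day 3, an interval that includes 1. At day 0, 1 of the 5 genes was above 0, against 43.5% of all compared genes, and 4 of 5 were with scaling by library totals or with deposited FPKM. At day 3 all 5 were above 0 under each of the 8 alternatives. Some sequence of these genes is not unique: 14.5% of 50-base words of Lamtor5, 8.09% of Lamtor1 and 5.46% of Lamtor3 occur in other annotated genes, and 18.7% of Lamtor1 exon bases overlap Lrrc51 on the other strand.

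Slc38a9, the lysosomal transporter that senses arginine and signals to the Rags (gene ID 268706, chr13:112656189-112738752, GRCm38), showed the largest genotype difference of the 34 at day 3. It stood at 14.2 and 19.3 CPM at day 0 (Ctrl, then iKO) and 32.8 and 20.5 CPM at day 3. The day 3 Ctrl library was the high one, and the other 3 libraries lay between 14.2 and 20.5 CPM. In iKO it was 1.36-fold higher (1.17 to 1.59) at day 0 and 1.60-fold lower (1.41 to 1.82) at day 3. The log2 ratio at day 3 was lower than at day 0, with a difference of -1.07. A difference of at least 1 in size was seen in 1 of the 34 genes, Slc38a9, and in 9.22% of all compared genes. The difference was under 1 when a pseudocount of 5 CPM or deposited FPKM was used, and it was below 0 in all 9 settings. The deposited counts list 8 transcript models of Slc38a9, all of them predicted, and its level is their sum. In the day 0 Ctrl library 1 predicted noncoding model held 26.8% of the counts and another 41.4%. In the day 0 iKO library such models held 23.9% and 16.3%, and in the day 3 Ctrl library 22.3% and 7.64%. In the day 3 iKO library the models named for day 0 Ctrl held 28.1% and 6.19%, in the same order. Their part in the ratios was not tested.

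The folliculin complex acts on RagC and RagD. Flcn stood at 39.9 and 47.2 CPM at day 0 (Ctrl, then iKO) and 54.5 and 60.0 CPM at day 3. Fnip1, a partner of folliculin, stood at 29.3 and 30.5 CPM at day 0 and 46.6 and 48.3 CPM at day 3. Fnip2, the paralog of Fnip1, stood at 45.6 and 34.0 CPM at day 0 and 28.8 and 29.3 CPM at day 3. Flcn and Fnip1 were higher at day 3, and Fnip2 was highest in the day 0 Ctrl library, with iKO 1.34-fold lower (1.22 to 1.48) at day 0. Flcn in iKO was 1.18-fold higher (1.08 to 1.30) at day 0 and 1.10-fold higher (1.01 to 1.20) at day 3.

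Among the genes of the mTOR complexes, Mtor was higher and Rictor lower in iKO at day 3. Mtor, the kinase, stood at 118 and 105 CPM at day 0 (Ctrl, then iKO) and 126 and 142 CPM at day 3. Its ratio of iKO to Ctrl lay on opposite sides of 1, 1.12-fold lower (1.06 to 1.19) at day 0 and 1.13-fold higher (1.07 to 1.19) at day 3. The day 0 difference depended on scaling, with a log2 ratio of -0.004 by deposited FPKM, level with Ctrl. Rptor, which defines mTORC1 and recruits its substrates, stood at 100.4 and 89.8 CPM at day 0 and 89.0 and 87.7 CPM at day 3. Rictor, the defining subunit of mTORC2 (gene ID 78757, chr15:6708349-6800401, GRCm38), stood at 27.6 and 27.8 CPM at day 0 and 62.7 and 45.9 CPM at day 3. The day 0 libraries did not differ in Rictor beyond counting error, and at day 3 iKO was 1.37-fold lower (1.25 to 1.49). Mapkap1, a second mTORC2 subunit, stood at 80.9 and 92.2 CPM at day 0 and 103 and 116 CPM at day 3, 1.14-fold higher (1.07 to 1.22) in iKO at day 0 and 1.13-fold higher (1.06 to 1.20) at day 3. Mlst8, shared by both complexes, stood at 66.2 and 59.9 CPM at day 0 and 66.8 and 56.0 CPM at day 3, 1.19-fold lower (1.10 to 1.29) in iKO at day 3. The exons of Mlst8 share 22.5% of their bases with Bricd5 on the other strand. Akt1s1, the inhibitory mTORC1 subunit PRAS40, stood at 143 and 116 CPM at day 0 and 80.9 and 79.7 CPM at day 3, 1.23-fold lower (1.16 to 1.30) in iKO at day 0. Deptor, an inhibitor of both complexes, was the lowest member at 3.79 and 4.13 CPM at day 0 and 2.24 and 2.23 CPM at day 3.

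Of the Rheb and TSC genes, Tsc1 differed most between genotypes at day 3 and least at day 0. Rheb, the GTPase that activates mTORC1, stood at 142 and 134 CPM at day 0 (Ctrl, then iKO) and 99.3 and 114 CPM at day 3. Tsc1, the subunit that stabilizes the TSC complex, stood at 37.8 and 36.7 CPM at day 0 and 67.3 and 51.9 CPM at day 3. At day 3 iKO was 1.29-fold lower (1.19 to 1.41) for Tsc1, and at day 0 it was 1.03-fold lower (0.933 to 1.14), with 1 inside the interval. Tsc2, the catalytic subunit, stood at 159 and 149 CPM at day 0 and 160.1 and 157 CPM at day 3. Tbc1d7, the third subunit, stood at 21.5 and 22.5 CPM at day 0 and 23.8 and 25.1 CPM at day 3. Neither differed by more than counting error at day 3. Exons of Tsc2 share 7.20% of their bases with Pkd1 on the other strand.

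Both substrate genes were lower in iKO on both days. Rps6kb1, the ribosomal S6 kinase, stood at 96.2 and 75.8 CPM at day 0 (Ctrl, then iKO) and 81.8 and 63.0 CPM at day 3, 1.27-fold lower (1.19 to 1.36) in iKO at day 0 and 1.30-fold lower (1.20 to 1.40) at day 3. Eif4ebp2, a repressor of cap-dependent translation known to predominate in brain (gene ID 13688, chr10:61428491-61452790, GRCm38), was the most abundant member by CPM, at 399 and 296 CPM at day 0 and 303 and 252 CPM at day 3. It was 1.35-fold lower (1.30 to 1.39) in iKO at day 0 and 1.20-fold lower (1.16 to 1.25) at day 3. For Mios, Itfg2, Rps6kb1 and Eif4ebp2 the log2 ratio was below 0 on both days under the main scaling and under each of the 8 alternatives.

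**Figure D2:**
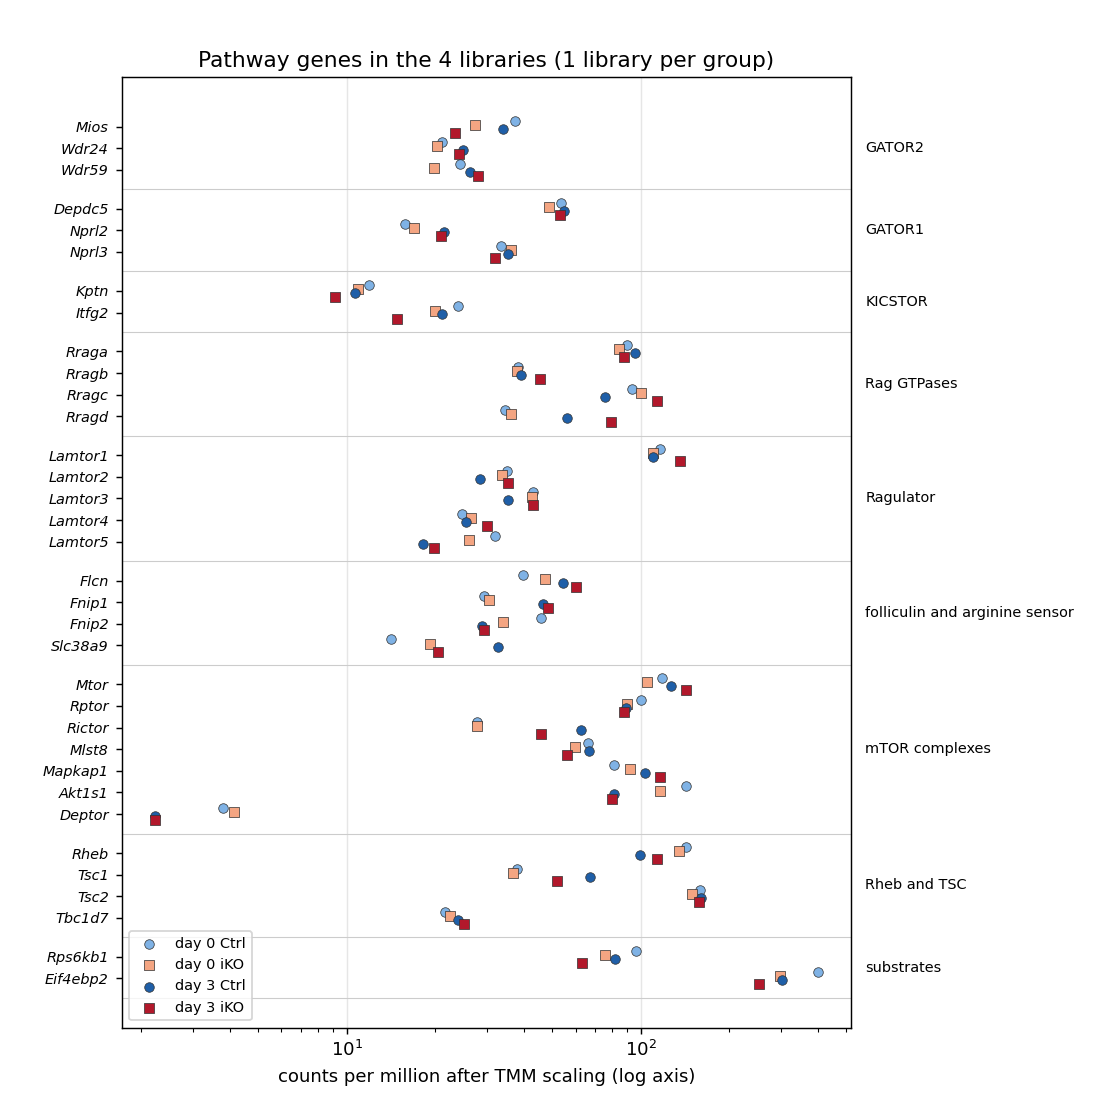
Level of each of the 34 genes in the 4 libraries, in CPM after TMM scaling on a log axis, grouped by role. Points of 1 gene are offset vertically only to separate them. Slc38a9, Rictor and Tsc1 have their highest point in the day 3 Ctrl library, and Rragc and Rragd in the day 3 iKO library.

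Withdrawal of the growth factors went with larger differences than genotype did for several of these genes. In Ctrl, 2 of 34 genes differed 2-fold between day 3 and day 0, against 29.7% of all compared genes, and 8 of 34 passed 1.5-fold (5 higher, 3 lower), against 52.4% (25.8% higher, 26.7% lower). Slc38a9 was 2.31-fold higher (2.01 to 2.67) and Rictor 2.27-fold higher (2.05 to 2.51) at day 3 in Ctrl, and 1 gene rather than 2 passed with deposited FPKM or with a pseudocount of 5 CPM. Tsc1 was 1.78-fold higher (1.63 to 1.95), Rragd 1.63-fold higher (1.48 to 1.79) and Fnip1 1.59-fold higher (1.44 to 1.77). The 3 genes lower past 1.5-fold were Akt1s1, 1.77-fold lower (1.66 to 1.88), Lamtor5, 1.76-fold lower (1.54 to 2.0), and Fnip2, 1.58-fold lower (1.43 to 1.76).

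In iKO, 1 of 34 genes differed 2-fold between the days, against 22.7% of all compared genes, and 4 of 34 passed 1.5-fold (3 higher, 1 lower), against 43.3% (21.5% higher, 21.9% lower). Rragd was 2.20-fold higher (2.02 to 2.40) at day 3 and the only one past 2-fold, where no gene passed with library totals or deposited FPKM. Rictor was 1.65-fold higher (1.49 to 1.83) and Fnip1 1.58-fold higher (1.43 to 1.75), while Deptor was 1.85-fold lower (1.27 to 2.74), from 90 and 42 counts. Slc38a9, past 2-fold in Ctrl, was 1.06-fold higher (0.925 to 1.23) in iKO, with 1 inside the interval. Rragc was 1.24-fold lower (1.16 to 1.33) at day 3 in Ctrl and 1.13-fold higher (1.07 to 1.20) in iKO. Each of these day comparisons shares its libraries with the genotype comparisons, so the values are not independent of those above. The median size of the log2 ratio between days was 0.25 in Ctrl and 0.24 in iKO for the 34 genes, and 0.62 and 0.50 for all compared genes.

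**Figure D3:**
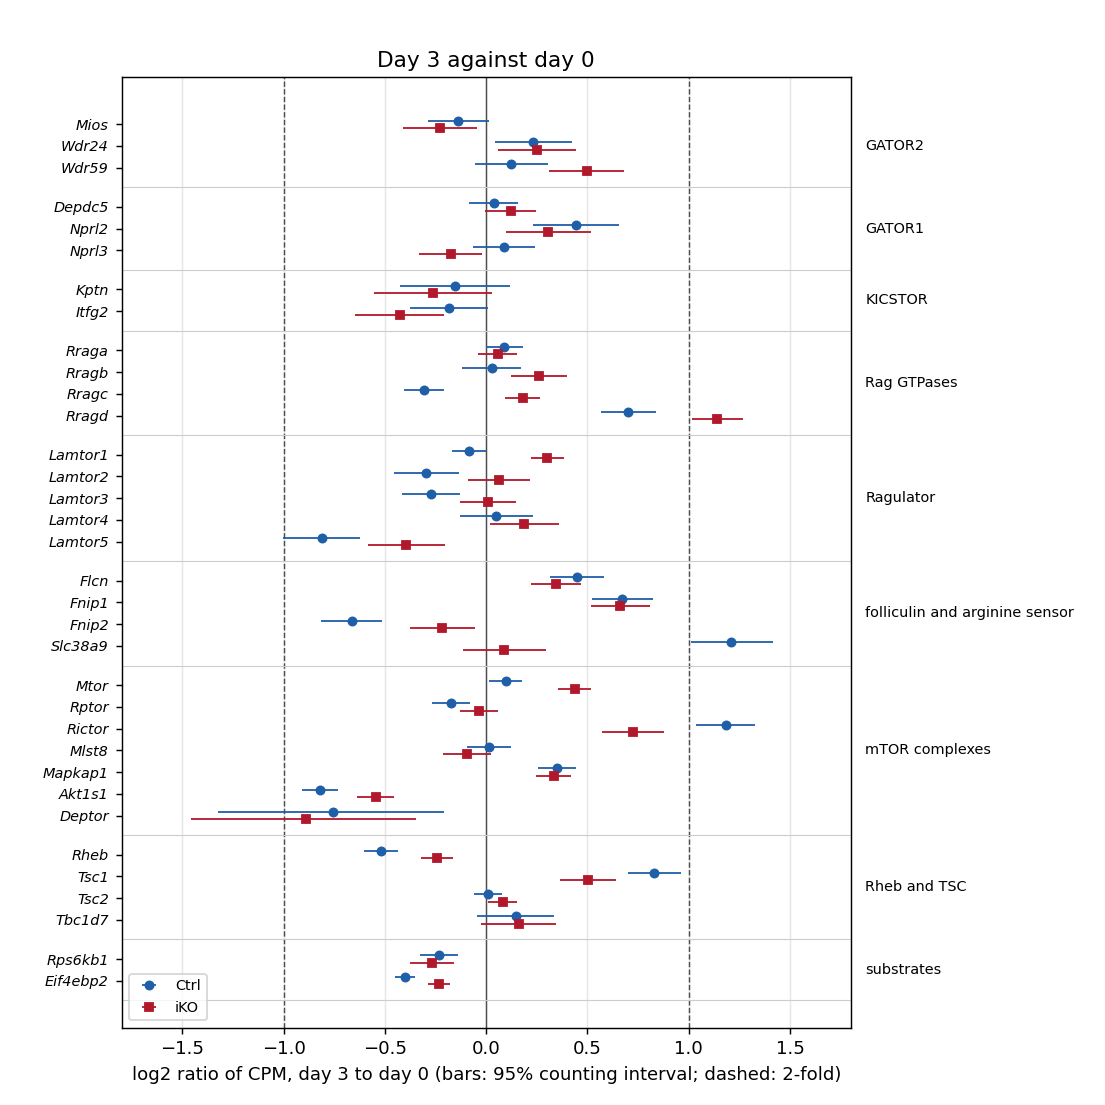
Ratio of day 3 to day 0 for the 34 genes in Ctrl and in iKO, as the log2 ratio of CPM without a pseudocount. Bars are 95% counting intervals of single libraries and dashed lines mark 2-fold. Slc38a9 lies past 2-fold in Ctrl and near 0 in iKO, and Rragd lies farther right in iKO than in Ctrl.

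Per transcript length, as deposited FPKM, the Ragulator anchor and Rheb led the 34 genes in every library. The FPKM level of Lamtor1 was 96.2 and 99.6 FPKM at day 0 (Ctrl, then iKO) and 95.8 and 112 FPKM at day 3. That of Rheb was 91.2 and 94.1 FPKM at day 0 and 67.2 and 72.5 FPKM at day 3. Deptor was lowest in each library, at 0.42 and 0.51 FPKM at day 0 and 0.26 and 0.25 FPKM at day 3. These orders compare genes within a library and rest on 1 library per group.

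Shares within pairs of genes of the pathway, which are not all partners in a complex, were also read from FPKM. Of Rragc and Rragd together, Rragd made up 15.9% and 15.6% at day 0 (Ctrl, then iKO) and 27.5% and 26.4% at day 3. Of Fnip1 and Fnip2 together, Fnip2 made up 57.9% and 49.9% at day 0 and 34.5% and 34.2% at day 3. Rragd thus took a larger share and Fnip2 a smaller share at day 3 in both genotypes. Of Rptor and Rictor together, Rictor made up 14.7% and 15.8% at day 0 and 32.2% and 26.5% at day 3. Of Tsc1 and Tsc2 together, Tsc1 made up 14.8% and 15.5% at day 0 and 23.3% and 19.2% at day 3. Rictor and Tsc1 took their largest share in the day 3 Ctrl library. Of Rraga and Rragb together, Rragb made up 23.0% and 23.9% at day 0 and 22.3% and 26.6% at day 3, a narrow range.

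**Figure D4:**
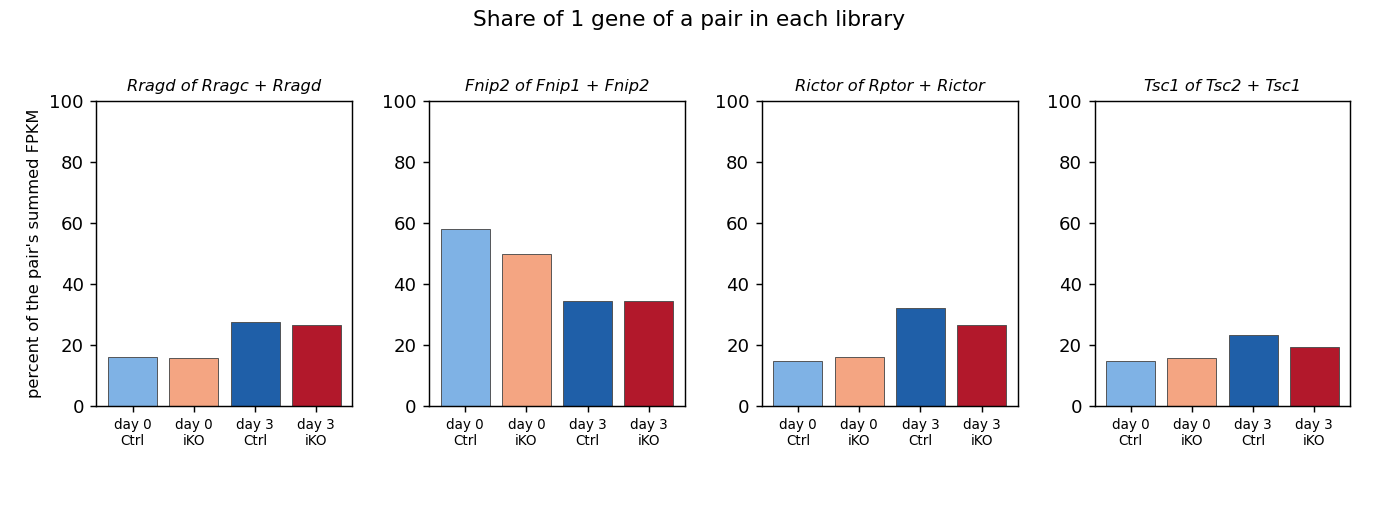
Share of the second gene of 4 gene pairs in their summed FPKM, in percent, 1 bar per library. In Ctrl the Rragd bar stands at 15.9% on day 0 and 27.5% on day 3, the Fnip2 bar at 57.9% and 34.5%, and the Rictor and Tsc1 bars are tallest in day 3 Ctrl.

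Other genes of the pathway were taken from 4 lists: sensors and remaining complex members, growth factor and energy inputs, outputs, and the V-ATPase. Of 13 sensor and complex genes compared, 1 was at least 2-fold higher and 1 lower in iKO on each day, Sesn2 and Seh1l. Seh1l is the floxed gene and served above as a check of the labels. Its lower call thus follows from the design and is no result about this list. All compared genes gave 2.67% higher and 0.331% lower at day 0, and 6.27% and 4.76% at day 3. The day 0 call of Seh1l was lost, with 0 lower, under library totals, deposited FPKM or a pseudocount of 5 CPM. Sesn2, the leucine sensor that inhibits GATOR2 and is known as a stress gene, stood at 67.5 and 161 CPM at day 0 (Ctrl, then iKO) and 38.6 and 153 CPM at day 3. It was 2.38-fold higher (2.24 to 2.54) in iKO at day 0 and 3.97-fold higher (3.66 to 4.30) at day 3, and both iKO libraries lay above both Ctrl libraries. Sesn3, another sestrin, stood at 18.1 and 26.7 CPM at day 0 and 116 and 94.5 CPM at day 3, and Castor2, of the family of cytosolic arginine sensors, at 21.8 and 21.5 CPM at day 0 and 82.6 and 55.3 CPM at day 3. These 2 were named after their values were seen, from the genes past 2-fold between the days in Ctrl. Such genes were 4 of the 13 (all higher, 0 lower), near the 29.7% of all compared genes past 2-fold in either direction. Castor2 was 1.49-fold lower (1.38 to 1.61) in iKO at day 3.

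Of 26 growth factor and energy inputs, 0 were 2-fold higher and 1 was lower at day 0, and 2 were higher and 1 lower at day 3, beside the same shares of all compared genes. At day 0, 1 was higher under library totals, deposited FPKM or a pseudocount of 0.1 CPM, and 0 were lower by deposited FPKM. At day 3, 1 was higher by deposited FPKM or under a pseudocount of 5 CPM. Prr5l, a subunit of mTORC2, stood at 22.9 and 8.86 CPM at day 0 (Ctrl, then iKO) and 10.0 and 6.63 CPM at day 3, 2.59-fold lower (2.18 to 3.08) in iKO at day 0. Ddit4, the stress-induced mTORC1 inhibitor REDD1, stood at 39.5 and 79.2 CPM at day 0 and 89.2 and 95.6 CPM at day 3, with a day 0 log2 ratio of 0.99, just short of 2-fold. Its relative Ddit4l, which encodes REDD2, stood at 83.7 and 116 CPM at day 0 and 12.5 and 147 CPM at day 3. The day 3 Ctrl library was the low one for Ddit4l, and iKO was 11.8-fold higher (10.3 to 13.4) there. Pik3cb, a catalytic subunit of PI3-kinase, stood at 24.3 and 18.7 CPM at day 0 and 27.0 and 10.9 CPM at day 3, 2.47-fold lower (2.10 to 2.91) in iKO at day 3. Prr5, named after its values were seen because it makes up the count, stood at 26.3 and 26.1 CPM at day 0 and 12.6 and 29.3 CPM at day 3, 2.33-fold higher (2.0 to 2.71) at day 3.

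Of 18 output genes, 0 passed 2-fold at day 0, where 3.01% of all compared genes did, and 1 was higher and 1 lower at day 3, where 6.27% and 4.76% were. The lower call, Grb10, was lost by deposited FPKM or under a pseudocount of 5 CPM, and 1 gene was higher at day 0 under a pseudocount of 0.1 CPM. Eif4ebp1, a paralog of Eif4ebp2, stood at 50.4 and 44.8 CPM at day 0 (Ctrl, then iKO) and 8.46 and 40.1 CPM at day 3. It was low only in the day 3 Ctrl library, and iKO was 4.75-fold higher (4.01 to 5.64) at day 3, the opposite side of 1 from Eif4ebp2. Grb10, an adaptor that is phosphorylated by mTORC1, stood at 23.6 and 21.4 CPM at day 0 and 3.03 and 0.636 CPM at day 3, 4.77-fold lower (2.54 to 9.73) in iKO at day 3. Pdcd4, an inhibitor of translation that is degraded after S6 kinase signalling, stood at 42.0 and 71.1 CPM at day 0 and 81.9 and 91.6 CPM at day 3, and Mitf, a transcription factor of the MiT/TFE family, at 2.75 and 5.64 CPM at day 0 and 5.82 and 10.5 CPM at day 3. Both had higher values in iKO than in Ctrl on each day, and neither passed 2-fold on the log2(CPM + 1) scale.

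The V-ATPase acidifies the lysosome and binds Ragulator. Of its 16 genes, 0 passed 2-fold on either day, and 15 lay above 0 at day 0 against 43.5% of all compared genes, with 13 above 0 at day 3 against 48.7%. The median log2 ratio was 0.17 at day 0 and 0.36 at day 3, against -0.06 and -0.01 for all compared genes. Atp6v0a2, a membrane subunit, stood at 91.1 and 104 CPM at day 0 (Ctrl, then iKO) and 128 and 249.8 CPM at day 3, 1.95-fold higher (1.86 to 2.05) in iKO at day 3. Atp6v1a, the catalytic subunit, stood at 163 and 173 CPM at day 0 and 186 and 329 CPM at day 3, 1.77-fold higher (1.70 to 1.84). For both, the day 3 iKO library was the high one. Atp6v0d1, another subunit of the membrane sector, stood at 110.4 and 138 CPM at day 0 and 141 and 141 CPM at day 3, and Atp6v0b at 62.5 and 77.7 CPM at day 0 and 68.0 and 86.3 CPM at day 3. Beside these day 3 values, the summed astrocyte markers were 9867 CPM in Ctrl and 15779.6 in iKO and the summed oligodendrocyte lineage markers 4719 and 3441 CPM, and their part in the V-ATPase and Ragulator levels was not tested.

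**Figure D5:**
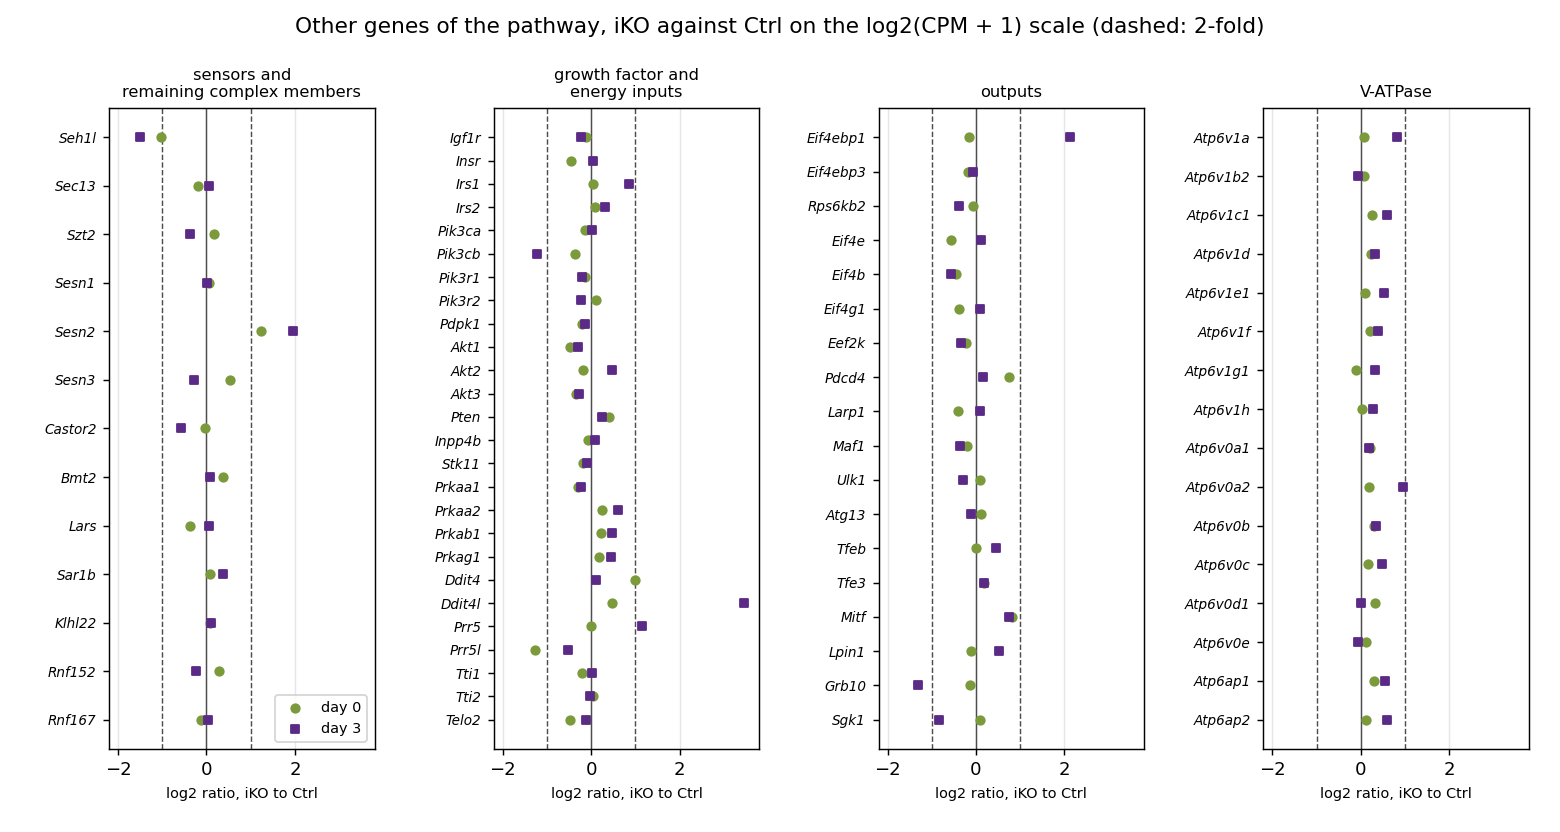
Log2 ratio of iKO to Ctrl on the log2(CPM + 1) scale at day 0 and day 3 for the compared genes of 4 other lists of the pathway, 1 panel per list, with dashed lines at 2-fold. Sesn2 lies past 2-fold on both days, Ddit4l and Eif4ebp1 only at day 3, and most V-ATPase genes lie right of 0 without passing 2-fold.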

How the data were processed

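RNA-seq of 4 libraries, 1 per group, was analysed. The authors deposited, per the file headers, an expected count and an expression value for each of 55122 RefSeq transcripts. The deposited expression value carries no unit name and was taken as FPKM from its constant ratio to the count per length. HISAT, Bowtie2, StringTie and mm10 are named per the submitters' processing notes. The sources used here do not state the counting tool, annotation, strand or filters. The authors' deposited table of day 3 genes holds a log2 ratio and an FDR (q-value), per the file headers, and compares single libraries. The day 0 table ends within a row and was not used.

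Expected counts were summed per Entrez gene, rounded and scaled by TMM (edgeR 4.0.16, R 4.3.3). Symbols, positions and promoters came from RefSeq tables of GRCm38.p6, and overlaps and shared words from a GENCODE annotation of GRCm38. Genes were compared from a mean of 1 CPM upwards, as log2((CPM1 + 1)/(CPM2 + 1)), a scale that understates the ratio of a low gene. Printed folds are CPM ratios with exact conditional (Clopper-Pearson) 95% intervals (scipy 1.17.1). Since reads are not independent molecules, these cover counting error only. The ratio code was tested on simulated counts. There is no replicate in any group, so no test was run and no library could be left out.

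The members and lists were chosen with earlier results of these data known, and the text names all members and, of each other list, the genes with the 2 largest ratios in each comparison of iKO and Ctrl. Kics2 was not matched and is not analysed here, and Castor1 was under the minimum. The alternatives were library totals, DESeq2 1.42.0 size factors, TMM without ribosomal protein and histone genes, deposited FPKM, pseudocounts of 0.1 and 5 CPM, no minimum and a minimum of 5 CPM.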

Additional observations from a re-analysis of the deposited data

Results flagged for a closer look

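For Slc38a9, Mtor and Rheb the main ratio of iKO to Ctrl lay on opposite sides of 1 on the 2 days, with 1 outside the counting interval on both. The share of all compared genes that meet this rule was not computed, so the number of such members is not read as a result. Opposite signs by themselves were seen in 14 of the 34 genes, against 34.0% of all compared genes. Each value rests on 1 library per group, and the difference between the days was not tested.

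For Slc38a9 the log2 ratio at day 3 minus that at day 0 was -1.07, and it ranged from -1.27 to -0.86 over the settings. For Mtor it was 0.34, with a range of 0.10 to 0.35, and the day 0 log2 ratio of Mtor was -0.004 by deposited FPKM. For Rheb it was 0.27, with a range of 0.06 to 0.28, and the day 0 ratio of Rheb lay above 1 with library totals and with deposited FPKM.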

How the results depend on the processing

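No paired analysis was possible because each group holds 1 library and no test was run, and for the same reason no library was left out. Of the counts and member medians that answer a comparison, 66 values stayed as reported and 6 moved. Members past 2-fold between the days in iKO were 0 with library totals and 0 with deposited FPKM (1 as reported). In Ctrl they were 1 by deposited FPKM and also 1 under a pseudocount of 5 CPM (2 as reported). Members differing by at least 1 between the days were 0 under both of these settings, deposited FPKM and pseudocount 5, (1 as reported). A median counted as unmoved when its shift was within the members' median counting error, so its sign could change. The day 0 median log2 ratio of the 34 genes was -0.07 as reported, 0.06 with library totals and 0.05 with deposited FPKM. Between the days in iKO it was 0.08, -0.05 and -0.03 in the same order. Of single-gene values and member counts past 1.5-fold, 1281 stayed and 106 moved, and 0 that were called reversed. Only a ratio of at least 1.5-fold as reported could be called reversed. Such members were 0 at day 0, 1 at day 3, 8 between the days in Ctrl and 4 in iKO. A small ratio could change sign within its counting error and still count as unmoved.

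Library totals moved the median of all compared genes from -0.06 to 0.06 at day 0 and from -0.01 to -0.13 between the days in iKO, so signs of small ratios depend on scaling. Between the days in iKO, 1459 genes were higher and 1485 lower past 2-fold, against 932 and 1474 with deposited FPKM and 1201 and 1821 with library totals. At day 0, 347 genes were higher and 43 lower, against 706 and 80 with a pseudocount of 0.1, 111 and 13 with one of 5 CPM and 252 and 19 with deposited FPKM. At day 3, 813 were higher and 618 lower, against 430 and 358 with a pseudocount of 5 CPM. The cause of these moves was not tested. With a minimum of 5 CPM, Deptor was left out and 33 members were compared. Among the members depth limits Deptor most, at 42 to 90 counts per library.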

Other observations

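The deposited counts are given per transcript model, and 23 of the 34 genes have more than 1 model. Shares of models are estimates that split reads between overlapping transcripts, and their exact binomial intervals cover counting error only. For Rictor, the curated model held 79.9% (76.3 to 83.1) of the day 0 Ctrl counts and 52.4% (48.2 to 56.3) of the day 0 iKO counts, and 93.9% and 90.9% of those at day 3. The gene's total did not differ between the day 0 libraries beyond counting error, while the share of this model did. For Mlst8, the model that led in the day 0 Ctrl library held 82.2% there and 68.5% in iKO, and 45.1% and 38.2% at day 3. For Nprl3, the leading model held 79.3% and 78.7% at day 0 (Ctrl, then iKO) and 73.5% and 55.2% at day 3. For Slc38a9, the model with the largest share in the other 3 libraries held 28.3% and 32.4% at day 0 (Ctrl, then iKO) and 63.8% and 51.3% at day 3. In the day 0 Ctrl library another model, a predicted noncoding one, led with 41.4%, and it held 0% of the day 0 iKO and day 3 Ctrl counts and 6.19% of the day 3 iKO counts. The 11 genes with 1 model, among them Rragc, Rragd, Rheb and all 5 Ragulator genes, are not affected by such a split.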
